A study of Homo sapiens with 9 samples.

Results

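Genomic sites recovered with an ARID1B antibody were compared with those recovered with an ARID2 antibody in HepG2, an established human hepatocellular carcinoma cell line that carries extra copies of several chromosomes. Every peak of the ARID1B list (8728) and of the ARID2 list (12995) was taken, 21723 of the 55293 peaks in the 4 lists of the series, and a peak was called shared where it covered at least 1 bp of a peak of the other list. Gene names came from the nearest-gene column of each list, and 10158 different names appeared in either. The series holds 9 libraries of chromatin immunoprecipitation followed by sequencing (ChIP-seq) from untreated HepG2 cells of one genotype, with 2 libraries each for ARID1A, ARID1B, ARID2 and SNF5 and 1 input library. The ARID1B antibody was Santa Cruz sc-32762X and the ARID2 antibody was Bethyl A302-230A, and no library lacking either protein was used here. The authors merged the 2 replicates of each antibody before calling peaks, so the lists carry no replicate error and no read depth. The intervals below cover counting of peaks only, and antibody strength, depth and subunit cannot be told apart.

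SWI/SNF complexes are ATP-driven remodelers that slide or evict nucleosomes at promoters and enhancers. ARID1A and ARID1B are alternative subunits of the form called BAF, whereas ARID2 belongs to the form called PBAF, so ARID1B and ARID2 do not sit in the same complex. SNF5 (SMARCB1, also called BAF47) is a core subunit that both forms contain.

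Reference sequence is given first for wide loci of each kind, since the lists meet at some sites and lie far apart at others. Each line holds the central 200 bases of a peak on the forward strand of GRCh37, the sequence of the hg19 build the lists use. Capitals mark matches, on either strand, to any of 13 short motifs spelled out further below, and a match is a description of the letters only. The HIST1H2AC window, at chr6:26123186-26123385, lay in a shared promoter-class region at the histone genes HIST1H2AC and HIST1H2BC, in an ARID1B peak 850 bp from the nearest start site. In Gencode v44 that window falls inside the span of HIST1H2BC, there called H2BC4. None of the 7 windows overlapped an exon of that annotation, and all but LINC00669 lay within the span of the gene named or, for HIST1H2AC, of HIST1H2BC. The HLF window, at chr17:53363537-53363736, lay in an intron region that both lists covered at HLF, which encodes a PAR bZIP transcription factor. The GRK1 (chr13:114428770-114428969) and CCNYL1 (chr2:208599672-208599871) windows lay in the widest ARID1B peaks of the promoter and intron classes with no ARID2 peak within 5000 bp. The ARHGAP5 (chr14:32547006-32547205), LITAF (chr16:11678240-11678439) and LINC00669 (chr18:37381570-37381769) windows lay in the widest ARID2 peaks of the promoter, intron and distal classes with no ARID1B peak within 5000 bp.
HIST1H2AC: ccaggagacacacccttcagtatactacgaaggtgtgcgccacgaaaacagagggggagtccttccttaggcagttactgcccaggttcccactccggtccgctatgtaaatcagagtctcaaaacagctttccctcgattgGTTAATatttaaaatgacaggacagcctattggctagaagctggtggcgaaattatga
HLF: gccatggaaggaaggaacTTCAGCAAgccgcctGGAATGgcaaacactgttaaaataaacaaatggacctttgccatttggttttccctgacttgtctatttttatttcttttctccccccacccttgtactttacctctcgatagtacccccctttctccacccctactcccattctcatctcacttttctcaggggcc
GRK1: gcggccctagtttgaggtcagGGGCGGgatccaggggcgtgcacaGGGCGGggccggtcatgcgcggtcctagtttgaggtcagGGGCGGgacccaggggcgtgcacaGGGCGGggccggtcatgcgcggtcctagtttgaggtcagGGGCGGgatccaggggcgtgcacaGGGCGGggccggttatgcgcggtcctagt
CCNYL1: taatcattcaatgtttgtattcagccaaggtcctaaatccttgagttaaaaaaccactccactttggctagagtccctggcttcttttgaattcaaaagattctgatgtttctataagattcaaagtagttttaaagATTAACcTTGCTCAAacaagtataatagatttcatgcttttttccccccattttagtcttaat
ARHGAP5: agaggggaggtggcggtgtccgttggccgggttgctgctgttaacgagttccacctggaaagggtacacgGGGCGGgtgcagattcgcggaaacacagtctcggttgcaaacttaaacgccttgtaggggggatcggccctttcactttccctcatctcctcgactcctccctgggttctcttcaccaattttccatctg
LITAF: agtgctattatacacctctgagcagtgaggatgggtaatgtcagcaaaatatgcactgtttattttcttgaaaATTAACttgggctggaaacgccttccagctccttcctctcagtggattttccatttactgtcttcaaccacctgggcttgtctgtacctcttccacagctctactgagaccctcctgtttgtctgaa
LINC00669: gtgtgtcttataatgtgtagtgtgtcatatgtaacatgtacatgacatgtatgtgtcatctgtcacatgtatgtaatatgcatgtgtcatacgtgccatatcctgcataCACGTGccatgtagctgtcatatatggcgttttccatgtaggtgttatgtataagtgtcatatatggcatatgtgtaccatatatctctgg
The capitals in the HIST1H2AC window were an HNF1 motif, and those in the HLF window were a C/EBP motif followed by a TEAD motif. The GRK1 window held 6 SP/KLF motifs and is a tandem repeat, in which a base equalled the base 63 positions further on in 97.1% of comparisons. The corresponding value was 52.7% at 71 positions in the LINC00669 window. In the other windows, each at its own spacing, it was 33.6 to 39.7%. The CCNYL1 window held an HNF1 and a C/EBP motif and no CpG, against 19 CpG in the GRK1 window. The ARHGAP5 window held 12 CpG and 1 SP/KLF motif, the LITAF window an HNF1 motif, and the LINC00669 window an E-box. The GRK1 and LINC00669 peaks overlapped no SNF5 peak and no ARID1A peak. The CCNYL1, LITAF and ARHGAP5 peaks each overlapped an SNF5 peak, with deposited scores of 33, 20 and 28.

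Most sites of either list were not shared at the level of base pairs. Of the ARID1B peaks, 2376 (27.2%, Wilson 95% interval 26.3 to 28.2%) overlapped an ARID2 peak, and of the ARID2 peaks, 2352 (18.1%, 17.4 to 18.8%) overlapped an ARID1B peak. The overlaps formed 2458 pairs in 2270 shared regions, and the median pair shared 126 bp (quartiles 59 and 213 bp) with midpoints 117.5 bp apart. An ARID1B peak lay wholly inside its ARID2 partner in 33.1% of pairs, and the reverse held in 17.7%. Both deposited columns used here were nearly the same for the 2 peaks of a pair, with equal gene names in 94.4% of pairs and equal feature classes in 97.3%. Unshared peaks were usually far from the other list: the nearest ARID2 peak was a median of 15950 bp from an unshared ARID1B peak, and the nearest ARID1B peak 24362 bp from an unshared ARID2 peak. Of the unshared peaks, 25.9% in the ARID1B list and 22.3% in the ARID2 list lay within 1000 bp of the other list.

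Shared peaks were wider than unshared ones in both lists. Median widths were 220 bp for shared and 145.5 bp for unshared ARID1B peaks, and 302.5 bp for shared and 176 bp for unshared ARID2 peaks. The narrowest peaks, at 52 bp, made up 16.7% of unshared ARID1B peaks, 5.30% of shared ARID1B peaks, 7.75% of unshared ARID2 peaks and 2.34% of shared ARID2 peaks. A wider peak has more bases with which to meet another, and the tests below were therefore also run within 5 strata of width.

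The position relative to genes separated the lists most clearly. Unshared ARID2 peaks lay mainly at promoters, the class that in these tables holds peaks under 1000 bp from a transcription start site (TSS), whereas unshared ARID1B peaks lay mainly in introns and distal sequence. The promoter share was 28.4% (27.3 to 29.5%) of 6352 unshared ARID1B peaks and 68.0% (67.1 to 68.9%) of 10643 unshared ARID2 peaks, an odds ratio of 0.186 (0.174 to 0.199, Fisher's exact test, adjusted p = 1.3e-559). Introns held 40.3% of unshared ARID1B peaks and 17.5% of unshared ARID2 peaks, distal sequence 28.8% and 12.6%, and exons 2.50% and 1.93%. The median distance to the TSS was 4401 bp for unshared ARID1B peaks and 432 bp for unshared ARID2 peaks, and 356 unshared ARID1B peaks against 106 unshared ARID2 peaks lay more than 50000 bp away. Peaks are not biological replicates, so the two-sided Fisher exact tests here and below, adjusted over 9 tests by the Benjamini-Hochberg method, compare the deposited lists and not repeated experiments. Neighbouring peaks of one locus were counted as separate and independent, and no test was run on joined peaks, so the intervals and p-values may be too narrow and too small.

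The difference between shared and unshared peaks went in opposite directions in the lists. Shared ARID1B peaks were at promoters in 63.3% (61.4 to 65.3%) of cases, far above the 28.4% of unshared ARID1B peaks (odds ratio 4.37, 3.95 to 4.82, Fisher's exact test, adjusted p = 6.6e-194). Shared ARID2 peaks were at promoters in 62.5% (60.5 to 64.4%), slightly below the 68.0% of unshared ARID2 peaks (odds ratio 0.783, 0.714 to 0.860, Fisher's exact test, adjusted p = 3.1e-07). With promoter peaks redefined as those at most 500 bp from a TSS, the ARID2 difference was lost, at 54.5% of shared and 53.2% of unshared peaks (odds ratio 1.06, Fisher's exact test, adjusted p = 0.24). By class, 45.5% of promoter, 13.6% of intron, 18.7% of distal and 22.8% of exon peaks in the ARID1B list were shared. In the ARID2 list the corresponding shares were 16.9%, 18.0%, 24.5% and 16.3%.

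**Figure D1:**
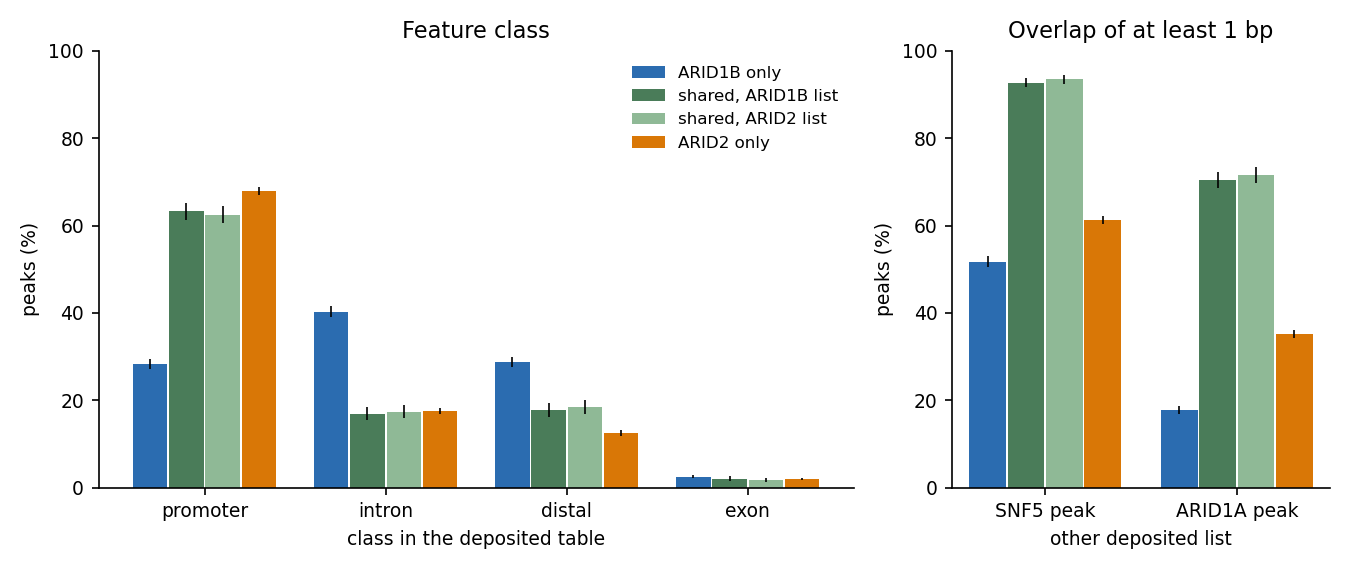
Left, percentage of peaks (y axis) in each deposited feature class (x axis) for unshared ARID1B peaks, shared peaks of either list and unshared ARID2 peaks; right, percentage of the same peaks that overlapped an SNF5 or ARID1A peak. Bars are shares of peaks and lines are Wilson 95% intervals; unshared ARID1B peaks are the group with the fewest promoters (28.4%) and shared peaks have the highest SNF5 overlap (92.7% and 93.5%).

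At promoters, the peaks of every group were centred close to the TSS. Of the promoter peaks that could be placed on a named gene, 53.6% of shared ARID1B, 55.2% of shared ARID2, 46.9% of unshared ARID2 and 40.9% of unshared ARID1B peaks had their midpoint within 150 bp of a TSS. Midpoints lay downstream of the TSS for 51.3% (50.1 to 52.5%) of unshared ARID2 peaks, 43.8% (41.1 to 46.5%) of shared ARID2 peaks and 46.2% (43.7 to 48.7%) of unshared ARID1B peaks. These positions rest on Gencode v44 start sites, placed on GRCh37, and not on the older Gencode release behind the lists.

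**Figure D2:**
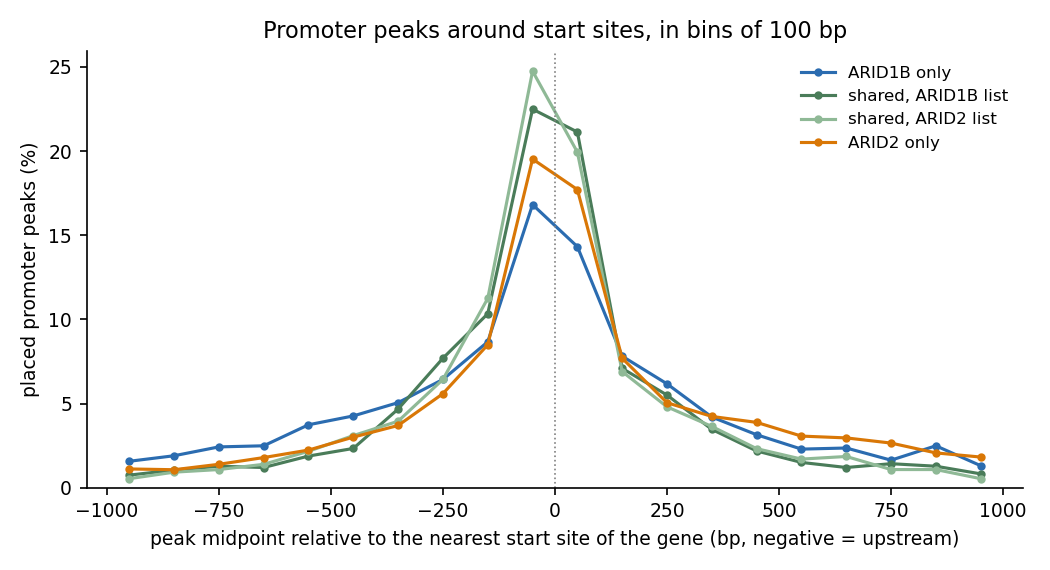
Percentage of placed promoter peaks (y axis) by the position of the peak midpoint relative to the nearest TSS of the assigned gene (x axis, bp, bins of 100 bp, negative is upstream), with a line for each group of peaks. All 4 lines peak in the bins beside the TSS; the unshared ARID1B line is the lowest there, and the unshared ARID2 line stays above the shared lines beyond 500 bp downstream.

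Shared sites were the ones most often covered by SNF5 and by ARID1A, a subunit alternative to ARID1B. SNF5 peaks overlapped 92.7% (91.6 to 93.7%) of shared and 51.7% (50.5 to 53.0%) of unshared ARID1B peaks (odds ratio 11.9, 10.1 to 14.0, Fisher's exact test, adjusted p = 1.5e-321). They overlapped 93.5% (92.4 to 94.4%) of shared and 61.4% (60.5 to 62.3%) of unshared ARID2 peaks (odds ratio 9.04, 7.64 to 10.7, Fisher's exact test, adjusted p = 5.4e-244). Between the unshared groups the difference in SNF5 overlap was smaller, with an odds ratio of 0.675 for ARID1B against ARID2 (0.634 to 0.718, Fisher's exact test, adjusted p = 1.4e-34). Compared within the promoter class and within the other classes, that odds ratio was 0.869 (Mantel-Haenszel, n = 6352 and n = 10643 peaks, adjusted p = 5.8e-05). ARID1A peaks overlapped 70.5% (68.7 to 72.3%) of shared and 17.7% (16.8 to 18.7%) of unshared ARID1B peaks (odds ratio 11.1, 9.96 to 12.4, Fisher's exact test, adjusted p = 3.4e-466). In the ARID2 list, ARID1A overlap was 71.6% (69.7 to 73.4%) for shared and 35.1% (34.2 to 36.1%) for unshared peaks (odds ratio 4.65, 4.22 to 5.13, Fisher's exact test, adjusted p = 2.6e-230). Unshared ARID1B peaks met an ARID1A peak less often than unshared ARID2 peaks did (odds ratio 0.398, 0.369 to 0.429, Fisher's exact test, adjusted p = 2.6e-136). Within the same classes the odds ratio was 0.669 (Mantel-Haenszel, n = 6352 and n = 10643 peaks, adjusted p = 1.5e-21). SNF5 peaks over shared sites had a median deposited score of 26 and a median width of 1381 bp, against 21 and 763 bp over unshared ARID1B peaks, 21 and 774 bp over unshared ARID2 peaks, and 18 and 407 bp where neither list had a peak. SNF5 peaks that met separate, non-overlapping ARID1B and ARID2 peaks (660) had a median width of 1384.5 bp and a median score of 23. An SNF5 peak over a shared site was counted there only, whatever other peaks it met. A wider SNF5 peak can meet more peaks, so these widths depend in part on how the groups were formed. Scores were not compared at equal width.

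The gene names repeated the division seen among peaks, but the lists met at more genes than at sites. Of the 10158 names, 3193 (31.4%) were in both lists, 2350 (23.1%) in the ARID1B list only and 4615 (45.4%) in the ARID2 list only. The names in both were 57.6% of the 5543 ARID1B names and 40.9% of the 7808 ARID2 names. Of the names, 7072 matched 1 protein-coding gene each, of which 2356 were in both lists, 1083 in the ARID1B list only and 3633 in the ARID2 list only. Against all 20103 protein-coding genes, 11.7% were assigned peaks of both lists, 6.28% had peaks of both that overlapped, 5.38% had ARID1B peaks only and 18.1% had ARID2 peaks only. Short RNA names such as U6, with 102 ARID1B and 49 ARID2 peaks, stand for many gene copies and are not single loci. Nearest genes are assignments by distance, and no expression was used here.

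The balance of names changed with distance. Among names with a peak under 1000 bp from the TSS, 4542 of 7254 (62.6%) had such a peak in the ARID2 list only and 872 in the ARID1B list only. Between 5000 and 50000 bp the order was the opposite, with such a peak in the ARID1B list only for 1423 of 2645 names (53.8%). For 548 (20.7%) it was in the ARID2 list only. At 50000 bp or more, 246 of 347 names (70.9%) had such a peak in the ARID1B list only, 42 (12.1%) in the ARID2 list only and 59 (17.0%) in both. Only peaks of the given distance were counted, so a name could have peaks of the other list at another distance. Of the 2350 names in the ARID1B list only, 31.8% had a promoter peak, against 85.7% of the 4615 names in the ARID2 list only.

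**Figure D3:**
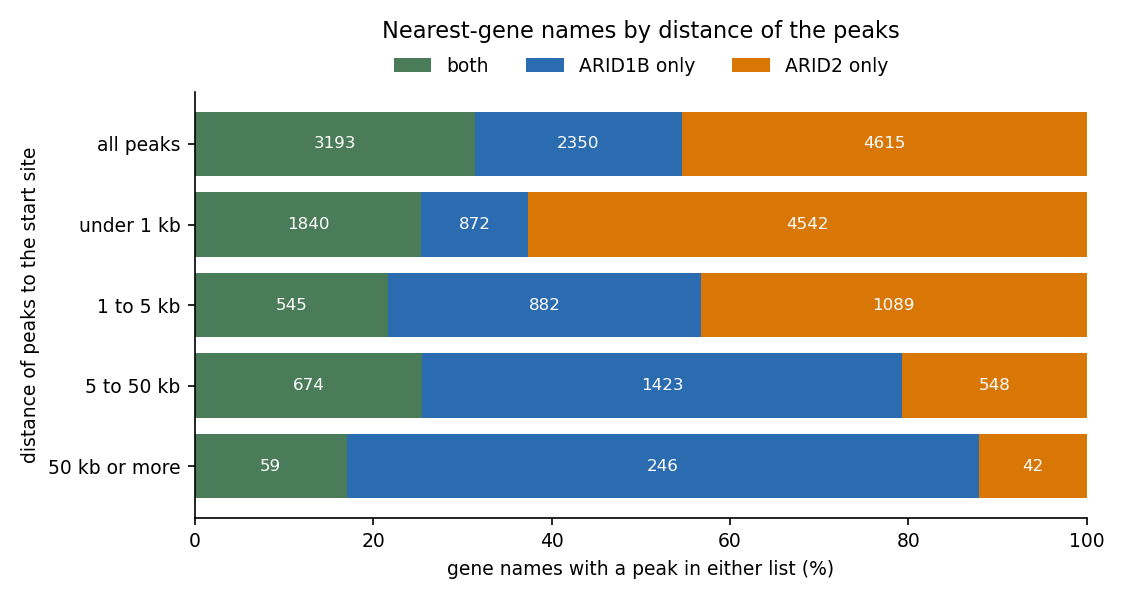
Percentage of gene names with a peak in either list (x axis) that appeared in both lists, in the ARID1B list only or in the ARID2 list only, for all peaks and by distance of the peaks to the TSS (y axis), with counts of names on the bars. Counting only peaks of each distance, names in the ARID2 list only go from 4542 of 7254 under 1 kb to 42 of 347 at 50 kb or more. Such a name can have ARID1B peaks at another distance.

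Of the 3193 names in both lists, 1760 had overlapping peaks and 1433 had peaks that lay apart. Among the latter the smallest gap between an ARID1B and an ARID2 peak of the same gene had a median of 760 bp, was at most 1000 bp for 53.9% of names and exceeded 10000 bp for 22.0%. For 453 of these 1433 names (31.6%) the ARID2 list had a promoter peak while all ARID1B peaks lay elsewhere, whereas the converse held for 89 (6.21%). Both lists had separate peaks in the promoter class for 578 names (40.3%). For 53 of the names, a peak did overlap the other list, but the partner was assigned to another gene.

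The 1760 names with overlapping peaks had medians of 1 ARID1B peak and 2 ARID2 peaks, and 71.7% had promoter peaks of both lists. The 10 genes with most overlapping ARID1B peaks, described next, were chosen for their number of peaks. All but FCGR2A, on chromosome 1, lay on chromosomes 2, 6, 16, 17 and 20, which had high shared percentages (given further below). ZNF217 (chr20:52183610-52226446), a zinc finger transcription factor gene amplified in several cancers, had 14 ARID1B and 16 ARID2 peaks, of which 11 ARID1B peaks overlapped an ARID2 peak, and most were intronic (11 and 14). ZFP36L2, which encodes an RNA-binding protein that promotes decay of AU-rich mRNA, had 11 and 13 peaks, and SLC7A5, the LAT1 amino acid transporter, 13 and 14, with 7 ARID1B peaks of each overlapping. FOXQ1, a forkhead factor, had 11 ARID1B and 16 ARID2 peaks, 7 of the former overlapping, with 8 and 15 of them distal. PTP4A1, a protein tyrosine phosphatase, had 12 peaks in each list, and FZD5, a Wnt receptor, had 8 and 3. SEPT9, which encodes a septin, had 15 and 12 peaks, of which 11 and 12 were in the promoter class of its several start sites. BRD2, a bromodomain reader of acetylated histones, had 5 of each, all 5 ARID1B peaks being promoter peaks that overlapped ARID2. The peaks assigned to FCGR2A, 12 and 7, were all distal, at 34100 to 49083 bp. Over these 10 genes, 99 of 109 ARID1B peaks and 96 of 106 ARID2 peaks overlapped SNF5. In the whole lists, SNF5 overlapped 92.7% of shared and 51.7% of unshared ARID1B peaks, and 93.5% and 61.4% of ARID2 peaks.

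APOB, which encodes the main protein of low-density lipoprotein and is transcribed in hepatocytes, is given peak by peak. It lies at chr2:21224301-21266945 on the reverse strand and had 8 peaks in each list, 6 of the ARID1B peaks overlapping ARID2. The promoter held ARID1B peaks of 533 and 467 bp at 444 and 198 bp from the TSS and ARID2 peaks of 425 and 360 bp at 611 and 74 bp. The intron pair nearest the TSS lay at 1450 bp in the ARID1B list and 1453 bp in the ARID2 list. A distal pair lay at 12265 and 12261 bp, and a cluster at 26165 to 27411 bp upstream held 3 ARID1B and 2 ARID2 peaks. All 16 peaks overlapped SNF5, and 3 of the ARID1B and 5 of the ARID2 peaks overlapped ARID1A.

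In the 10 genes with most peaks of both lists but no overlap, the closest ARID1B and ARID2 peaks often lay near each other. These genes were chosen for their number of peaks, and more peaks allow a smaller closest gap. MAP4K4, a kinase gene of 198 kb, had 9 ARID1B and 8 ARID2 peaks, the closest 215 bp apart, and the promoter peaks (2) were all ARID2. CLIC1, a chloride intracellular channel gene, had 4 ARID1B and 6 ARID2 peaks with a smallest gap of 2 bp, SEPP1 (selenoprotein P, a plasma selenium carrier made by liver) 4 and 9 with 23 bp, and SH3BP4 7 and 2 with 31 bp. CHD2, a chromatin remodeler, had 2 ARID1B and 9 ARID2 peaks with a gap of 106 bp, SPIRE2, an actin nucleator, 3 and 7 with 287 bp, and MSI2, an RNA-binding protein, 10 and 3 with 612 bp. FAM72B, which has near-identical copies on the same chromosome and whose peaks are therefore uncertain, had 4 and 7 with 16 bp. RERE, a nuclear receptor corepressor gene of 497 kb, was the exception, with 3 ARID1B and 10 ARID2 peaks no nearer than 9310 bp and 5 promoter peaks, all ARID2. Over the 10 genes chosen this way, 14 of 50 ARID1B peaks and 29 of 67 ARID2 peaks were in the promoter class. Among all unshared peaks, promoters held 28.4% in the ARID1B list and 68.0% in the ARID2 list.

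The 10 genes with most peaks in the ARID1B list only had 4 or 5 peaks each, mostly in introns. Over all unshared ARID1B peaks, introns held 40.3%. FGA (chr4:155504278-155511894), the fibrinogen alpha chain gene, had 5 ARID1B peaks of 235, 52, 119, 83 and 52 bp, 1 at 254 bp from the TSS and 4 at 6652 to 8293 bp, and the ARID2 list had no peak within 1124376 bp of any of them. IL1R1, the interleukin-1 receptor, had 4 intronic ARID1B peaks of 330, 481, 245 and 145 bp, all overlapping SNF5 and none overlapping ARID1A. GXYLT2 and LCOR, the latter encoding a ligand-dependent nuclear receptor corepressor, had 4 each, as did SLC35D2, a nucleotide sugar transporter, and NUP210, a nuclear pore membrane glycoprotein. PGC, the pepsinogen C gene, had 4 within 1490 bp of a TSS. The 4 peaks assigned to BSPH1 were all distal, at 34628 to 45759 bp. RASA4B (5 peaks) and RGPD8 (4 peaks) belong to families with near-identical copies, so their placement is uncertain. Over these 10 genes, 9 of 42 peaks were in the promoter class, 25 in introns and 8 distal, 26 overlapped SNF5 and 2 overlapped ARID1A. Among all unshared ARID1B peaks, 28.4% were in the promoter class, 51.7% overlapped SNF5 and 17.7% overlapped ARID1A.

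Genes in the ARID2 list only had their peaks in the promoter class more often than the ARID1B genes just named, as a count. EEF2K (chr16:22217599-22300059), the kinase that inhibits elongation factor 2, had 8 ARID2 peaks, 2 of them in the promoter class, and EEF2, its substrate, had 5. ETV5, an ETS transcription factor, had 7, and TRA2B, a splicing regulator, had 6, the nearest 3 bp from a TSS. CDKN2C, which encodes the CDK4 and CDK6 inhibitor p18, had 6 peaks of 154, 549, 663, 692, 237 and 303 bp, 3 in the promoter class and 3 at 7128 to 8706 bp, and the nearest ARID1B peak was 7869 bp away. GPBP1 had 5 peaks, all in the promoter class, as 4 of 5 were for SLC12A4, a potassium-chloride cotransporter, 3 of 5 for CNOT6L, a deadenylase, and 2 of 5 for RPS29, a ribosomal protein gene. Over the 10 genes chosen this way, 31 of 58 peaks were in the promoter class, 38 overlapped SNF5 and 25 overlapped ARID1A. Among all unshared ARID2 peaks, these shares were 68.0%, 61.4% and 35.1%.

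The widest regions of each kind were also listed by class. The widest shared promoter regions were at SP5, a zinc finger gene activated by Wnt signalling (chr2:171570646-171573694, with an ARID1B peak of 3049 bp and an ARID2 peak of 2751 bp), at BRD2 and HLA-DMA (2368 bp, 3 ARID1B peaks under 1 ARID2 peak), and at HIST1H2AC and HIST1H2BC (2239 bp, likewise 3 and 1). The widest shared introns were in HLF (1894 bp), KCTD2 (1683 bp) and SDC2 (1371 bp), and the widest shared distal regions were near JPH4 (2443 bp), AC011753.6 (1740 bp) and PTP4A1 (1574 bp). All 9 overlapped both SNF5 and ARID1A, with SNF5 scores of 30 to 37. A shared region joins the overlapping peaks of both lists, whereas an unshared region is a single peak, so their widths cannot be compared directly. The ARID1B regions with no ARID2 peak within 5000 bp were led at promoters by GRK1 (1836 bp), LYNX1 (1113 bp) and GRTP1 (1020 bp). In introns they were led by CCNYL1 (1126 bp), RP11-356C4.5 (1057 bp) and NOMO3 (1050 bp, a gene with near-identical copies), and in distal sequence by ACSL3 (1537 bp, 64282 bp from the TSS), AP006216.5 (1139 bp) and AC092570.4 (1102 bp). The ARID2 regions with no ARID1B peak nearby were led at promoters by ARHGAP5, a GTPase-activating protein gene (chr14:32545521-32548691, 3171 bp), ASXL2, a Polycomb-associated protein gene (1726 bp), and SF3B3, a splicing factor (1696 bp). The ARID2 introns were led by LITAF (858 bp), PTGES3 (768 bp) and SCAND3 (741 bp), and the distal regions by LINC00669 (1212 bp), RP3-406P24.3 (801 bp) and EVA1A (744 bp).

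Fixed gene lists were described by counts beside the shares over all protein-coding genes, with no test of a list. Of 26 liver transcription factor genes, 14 (53.8%) were in both lists, 8 of them with overlapping peaks, 1 was in the ARID1B list only, 5 in the ARID2 list only and 6 in neither. Over all protein-coding genes the shares were 11.7%, 6.28%, 5.38%, 18.1% and 64.8% in the same order. The members with most peaks were CEBPB, a bZIP factor of the acute-phase response (6 ARID1B and 5 ARID2 peaks), FOXA1, a pioneer factor (3 and 7), HHEX, a homeobox factor of early liver (5 and 5), and PROX1 (4 and 4). At CEBPB, 4 of the ARID1B peaks overlapped ARID2, and the promoter held ARID1B peaks of 439 and 52 bp that both overlapped an ARID2 peak of 693 bp. At FOXA1 the overlapping sites were distal, at 5686 and 4992 bp in the ARID1B list, while the 3 ARID2 promoter peaks overlapped no ARID1B peak, although 1 of them lay 3 bp from an ARID1B peak assigned to another gene. HNF4A, the hepatocyte nuclear receptor, named here after its values were seen, had 4 ARID2 peaks, 3 of them in the promoter class, and no ARID1B peak.

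Of 44 genes for secreted plasma proteins, 18 (40.9%) were in both lists, 6 (13.6%) in the ARID1B list only, 4 (9.09%) in the ARID2 list only and 16 in neither. Of the 12 lists this was the only one with more genes in the ARID1B list only than in the ARID2 list only. Those 6 genes included the fibrinogen chain genes FGA, FGB and FGG, and neighbouring genes were not counted as 1 locus. APOB and AFP (1 ARID1B and 5 ARID2 peaks) had most peaks, followed by APOH, SERPINA3 and ITIH2 (3 and 2 each) and FGA (5 and 0), which tied at 5. AFP, the fetal alpha-fetoprotein that HepG2 cells secrete, had an ARID1B peak of 420 bp and an ARID2 peak of 204 bp in an intron with a gap of 16 bp, and an ARID2 peak 33 bp from a TSS. ALB, SERPINA1 and CYP7A1, the rate-limiting enzyme of bile acid synthesis, were chosen after their values were seen. ALB, the albumin gene, had a shared site 21833 bp from the TSS by the ARID1B list and an ARID2 peak at 559 bp, SERPINA1 had 2 ARID1B peaks at 2120 and 5142 bp, and CYP7A1 had 2 ARID1B peaks at 146 and 28893 bp. Of 31 drug metabolism genes, 7 were in both lists, 4 in each list only and 16 in neither, with most peaks at NQO1 (4 ARID1B and 5 ARID2), POR (4 and 3), CYP27A1 (3 and 3) and ABCC2 (1 and 3).

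Over all protein-coding genes more were in the ARID2 list only (18.1%) than in both lists (11.7%) or in the ARID1B list only (5.38%), and the housekeeping lists had the same order. Of 79 cytoplasmic ribosomal protein genes, 37 (46.8%) were in the ARID2 list only, 7 (8.86%) in the ARID1B list only and 9 (11.4%) in both, and the members with most peaks of both lists together were RPS29 (5 ARID2 peaks), RPL10A (1 ARID1B and 4 ARID2), RPS12 (4 ARID2) and RPL13A (1 and 3). Many ribosomal protein genes have processed pseudogenes, which can draw reads. Of 31 proteasome subunit genes, 14 (45.2%) were in the ARID2 list only, 1 in the ARID1B list only and 5 (16.1%) in both, all 5 with overlapping peaks, and PSMA6 had 2 ARID1B and 7 ARID2 peaks. Outside the housekeeping lists, another list held 22 genes for NFI, TCF/LEF and MYB factors, MBD4 and subunits of the DREAM cell-cycle repressor. Of these, 11 were in the ARID2 list only, 2 in the ARID1B list only and 3 in both, the last being NFIA (3 and 5), TCF7L2 (1 and 4) and NFIC (2 and 2).

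Signalling and chromatin lists were counted in the same way. Of 43 genes of the TGF-beta and SMAD pathway, 17 (39.5%) were in both lists, 2 in the ARID1B list only and 10 (23.3%) in the ARID2 list only. SMAD3, a receptor-activated signal transducer, had 5 peaks in each list, TGIF1, a corepressor of SMAD, 3 and 5, and the target ID3 2 and 5. Of 28 Hippo pathway genes, 8 (28.6%) were in both, 1 in the ARID1B list only and 7 in the ARID2 list only. The coactivator YAP1 had 6 and 5 peaks, AJUBA, an inhibitor of LATS kinases, 3 and 7, the target CTGF 3 and 4, and the DNA-binding partner TEAD1 had 5 ARID2 peaks only. Of 19 AP-1 family genes, 6 (31.6%) were in both, 0 in the ARID1B list only and 5 (26.3%) in the ARID2 list only, among them JUN with 4 ARID2 peaks. Of 34 genes for histone deacetylases and corepressors, 13 (38.2%) were in both, 9 of these with peaks apart, 1 in the ARID1B list only and 9 (26.5%) in the ARID2 list only, with 5 and 3 peaks at MTA3, a NuRD subunit, and 4 ARID2 peaks at SIN3A, a deacetylase scaffold. Of 22 ephrin and ephrin receptor genes, 3 (13.6%) were in both and 16 (72.7%) in neither, against 11.7% and 64.8% of all protein-coding genes. A gene in neither list is one whose name no peak carried, which is not absence of binding. EPHA2 was one of the 16, and the paper describes binding of all the ARIDs in its promoter and first intron.

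The SWI/SNF genes themselves were among the named sites. Of 28 subunit genes, 7 were in both lists, 2 in the ARID1B list only, 11 (39.3%) in the ARID2 list only and 8 in neither. ARID2 had 3 ARID1B and 4 ARID2 peaks, and all 3 ARID1B peaks, at 1998, 877 and 12947 bp from a TSS, overlapped ARID2 peaks. ARID1B had 3 ARID1B peaks, 1 distal and 2 intronic, and 1 ARID2 peak in its promoter at 734 bp, with no overlap. SMARCA4, the ATPase BRG1, had 3 and 2 peaks, and SS18L1 had 2 and 4. ARID1A, named after its values were seen, had 2 ARID2 peaks, at 396 and 1880 bp, and no ARID1B peak.

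**Figure D4:**
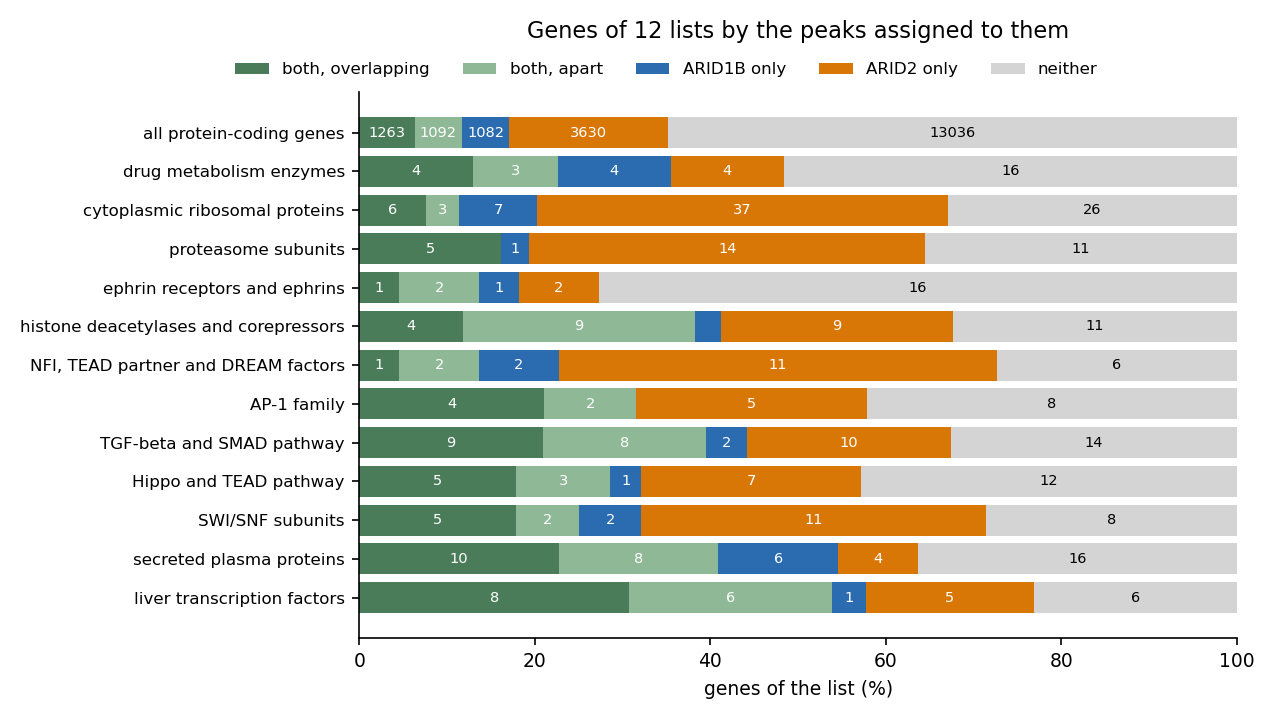
Percentage of the genes of each list (x axis) with overlapping peaks of both subunits, peaks of both that lay apart, ARID1B peaks only, ARID2 peaks only or neither, with counts on the bars and all 20103 protein-coding genes at the top. The share with ARID2 peaks only is highest in the list labelled NFI, TEAD partner and DREAM factors (11 of 22) and next in cytoplasmic ribosomal proteins (37 of 79, 46.8%). The former holds NFI, TCF/LEF, MYB and DREAM genes and MBD4. Liver transcription factors have the largest share in both lists (14 of 26).

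Letters of 13 motifs were counted in the 300 bp around each peak's midpoint, on both strands, and compared with windows of the same length at 20113 protein-coding start sites or on a grid of 57164 positions across the genome. The motifs were TEAD GGAATG, FOXA TGTTTAC, HNF4 CAAAGTCCA, AP-1 TGANTCA, C/EBP TTGCNNAA, NFI TTGGCA, HNF1 GTTAAT, SP/KLF GGGCGG, ETS CCGGAAG, NRF1 GCGCATGCG, YY1 AAGATGGCG, CREB/ATF TGACGTCA and the MYC/MAX E-box CACGTG, where N is any base and no motif contains another. At promoters, NRF1 letters were in 0.611% (0.341 to 1.09%) of unshared ARID1B windows, 3.69% (3.28 to 4.15%) of unshared ARID2 windows, 4.85% (3.88 to 6.06%) of shared ARID1B windows and 2.31% of all start sites. ETS letters were in 7.11% (6.01 to 8.39%), 10.3% (9.66 to 11.1%), 13.6% (11.9 to 15.4%) and 12.1%, and CREB/ATF letters in 0.777%, 1.85%, 2.46% and 2.15%. SP/KLF letters were in 45.9%, 49.8%, 60.0% and 54.1%. TEAD letters differed little between unshared ARID1B (13.9%) and unshared ARID2 (13.8%) promoter windows. The median GC content of the promoter peaks was 61.5% for unshared ARID1B, 61.1% for unshared ARID2 and 64.0% for shared ARID1B peaks. Peak windows were centred on peak midpoints and the start-site windows on the TSS. Midpoints lay within 150 bp of a TSS for 40.9% of placed unshared ARID1B, 46.9% of unshared ARID2 and 53.6% of shared ARID1B promoter peaks. The part of window position in these shares was not tested.

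In introns and distal sequence, HNF4 and FOXA letters, those of hepatocyte factors, were more frequent than on the genome grid in each of the groups given here, while HNF1 letters were less frequent. HNF4 letters were in 3.88% (2.76 to 5.43%) of shared ARID1B windows, 1.91% (1.55 to 2.36%) of unshared ARID1B windows, 1.37% (1.03 to 1.84%) of unshared ARID2 windows and 0.369% of grid windows. FOXA letters were in 9.47%, 7.38%, 6.56% and 4.84%, and TEAD letters in 19.1%, 18.3%, 17.3% and 15.3%. Seen from the ARID2 list, the shared windows had TEAD letters in 15.4% (13.1 to 18.0%), the level of the grid, HNF4 letters in 3.08% and FOXA letters in 10.6%. AP-1 letters were in 11.8%, 12.5%, 10.4% and 9.17%. E-box letters were in 6.19% (4.74 to 8.05%) of shared ARID1B, 3.21% (2.73 to 3.77%) of unshared ARID1B and 6.06% (5.28 to 6.94%) of unshared ARID2 windows, against 2.64% of the grid. NRF1 letters were in 1 of 4392 unshared ARID1B windows and 14 of 3202 unshared ARID2 windows. HNF1 letters were in 10.1%, 10.6% and 10.1% against 14.1% of the grid. The median GC content of the called peaks was 49.5%, 46.5% and 48.3% in the same order. On the grid it was 40.0%, measured over the 300 bp windows and not over peaks. The part of GC content in these shares was not tested.

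The lists also differed by chromosome. The share of ARID1B peaks that overlapped ARID2 was 41.8% on chromosome 20, 40.7% on chromosome 14, 38.2% on chromosome 6, 33.2% on chromosome 16, 32.4% on chromosome 17 and 31.5% on chromosome 2. It was 15.0% on chromosome 5, 15.1% on chromosome 4, 15.8% on chromosome 3 and 10.3% on chromosome 21. In the ARID2 list the share was 27.9% on chromosome 2, 27.8% on chromosome 6 and 24.8% on chromosome 20, against 8.84% on chromosome 4, 8.67% on chromosome 5 and 5.63% on chromosome 21. On chromosome X, the ARID1B list had 62 peaks and the ARID2 list 22, and none overlapped (0 of 62, upper Wilson bound 5.83%). Most of the genes and widest regions named above for shared sites lay on chromosomes with high shares. Copy number was not measured in these files, and no test above was run within chromosomes.

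**Figure D5:**
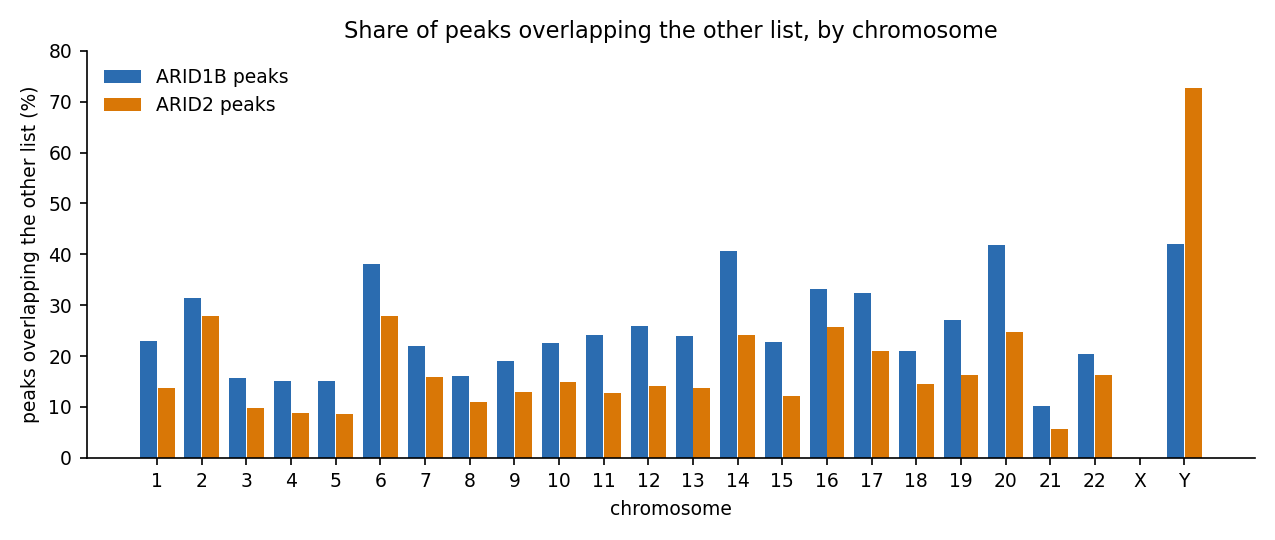
Percentage of ARID1B peaks (blue) and ARID2 peaks (orange) that overlapped a peak of the other list (y axis), for each chromosome (x axis). Among autosomes the ARID1B bar is highest on chromosome 20 (41.8%); both bars are at 0 on X, and the bars on Y (42.1% and 72.7%) rest on 19 ARID1B and 11 ARID2 peaks.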

How the data were processed

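ChIP-seq libraries were made from MNase-digested chromatin of HepG2 cells, with 2 replicates per antibody. Per the labels and the study's methods, the authors aligned reads with Bowtie2 to hg19, called broad peaks with MACS2 at a q threshold of 0.01 on merged replicates, joined peaks within 100 bp and removed blacklisted regions. Deposited coordinates and distances are in bp, and nearest genes came from Gencode V16. The deposited SNF5 list also holds a peak score, used as given, whose formula is not given in the sources used here. Read depth per library is unknown from these files. The deposited chromatin-state column was not used: overlapping ARID1B and ARID2 peaks had equal states in 82.0% of pairs on chromosome 1 but in 35.0% elsewhere. The authors' peak grouping column was not used either.

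Starts were treated as counted from 0 and are printed from 1. Overlaps, Wilson 95% intervals, Fisher exact tests, odds ratios with Woolf intervals and Mantel-Haenszel tests were computed in Python 3.11.15 with scipy 1.17.1 and tested on simulated data. Alternatives changed the overlap rule, the promoter distance, the chromosomes and the peaks kept, or tested within 5 strata of width or within classes. Of 10158 names, 8126 matched Gencode v44 on GRCh37, 7551 under their own symbol. Named genes were the 10 protein-coding genes with most peaks in each of 4 categories (overlapping, apart, ARID1B only, ARID2 only), the 3 widest regions per class and the 4 members with most peaks per list. Some genes that these rules chose are not reported here. Members and lists were chosen with earlier results of these data known.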

Additional observations from a re-analysis of the deposited data

How the results depend on the processing

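No paired analysis was possible because each list was called on merged replicates, and for the same reason no replicate could be left out. The share of ARID1B peaks that overlapped ARID2 (27.2%) became 7.17% with a reciprocal overlap of at least 50%, 37.1% with midpoints at most 500 bp apart, 46.1% with a gap of at most 1000 bp and 30.4% with peaks at most 1000 bp apart joined first. The share of ARID2 peaks (18.1%) became 4.82%, 25.6%, 36.4% and 23.3% under the same rules. On autosomes only, and in the widest 50% of peaks, both shares stayed inside their main intervals. Names in both lists numbered 1840 with promoter peaks only. Names in the ARID1B list only numbered 1348 within 5000 bp of a TSS, 872 with promoter peaks only and 1083 among protein-coding names. The overlap rule here decided which ARID1B and ARID2 peaks were shared, and overlap with SNF5 and ARID1A was kept at 1 bp.

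All 21 alternatives for SNF5 overlap and all 21 for ARID1A overlap kept the direction and the side of the threshold, as did 23 of 24 for feature class, but some sizes moved. With a gap of at most 1000 bp counted as shared, the odds ratio of shared against unshared ARID2 peaks was 4.43 for SNF5 and 2.47 for ARID1A, and that of unshared ARID1B against unshared ARID2 peaks was 0.107 for promoters and 0.247 for ARID1A. With midpoints at most 500 bp apart, the SNF5 odds ratio for ARID2 peaks was 5.98. Within 5 strata of width, the odds ratios of shared against unshared ARID1B peaks were 9.37 for SNF5 and 9.12 for ARID1A. For shared against unshared ARID2 peaks they were 6.44 and 3.23, and between unshared peaks 0.771 and 0.442. All of these were weaker than the main values. The promoter odds ratios within those strata were 4.73 for ARID1B and 0.607 for ARID2, both stronger, and 0.197 between unshared peaks. When each peak of a pair had to be covered to 50%, the promoter odds ratio for shared against unshared ARID1B peaks was 2.85 and the ARID1A odds ratio between unshared peaks was 0.601. The exception was the promoter share of shared against unshared ARID2 peaks with promoter defined as at most 500 bp from a TSS (odds ratio 1.06, Fisher's exact test, adjusted p = 0.24), and the cause was not tested. Restricting the peaks or names for each named gene gave 160 cases, and only presence in both lists, the ARID1B list only or the ARID2 list only was recomputed, not whether peaks overlapped. The gene kept its place in 143 of them, changed it in 7 and had no peak left in 10. With promoter peaks only, FOXQ1 was in the ARID1B list only, and MAP4K4, RERE and SPIRE2 were among those in the ARID2 list only. The lists do not allow an estimate of how many unshared peaks fell below the calling threshold in the other library.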
